A study of Mus musculus with 6 samples.

Results

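Calcium and sodium entry genes of working heart muscle were followed in cells of the embryonic mouse heart. The set was chosen by gene symbol and comprises Scn4b, Cacna1c, Cacnb2, Cacna2d1 and Slc8a1. Of these 5 genes, 4 were analysed among the 15159 genes of the count table, and Scn4b, a beta subunit of the sodium channel, was not analysed here. All 4 were well above the filter on low counts in every library, with 4436 to 46664 reads per gene and library.

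The cells came from cardiac tissue of C57BL/6 x 129S4/SvJae embryos at embryonic day 18.5. One group, H3K9M, carried an inducible transgene for histone H3.3 with methionine in place of lysine 9, and the other, H3WT, an inducible wild-type H3.3. Both groups received doxycycline at 2 µg/ml on days 0, 1 and 2 and were grown for 4 days on silicone (PDMS) of 13 kPa, with 3 libraries of polyadenylated RNA each. Lysine 9 of histone H3 is methylated in silent chromatin, and the mutant histone is known to suppress that methylation, which was not measured here. The promoter and cell type that drive the transgene are not stated in the labels. Nor is the origin of each library from its own animal, so the spread behind each p-value may be technical.

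Total counts per library were 55550379 to 67994773. All 15 cardiomyocyte markers checked were tested, and their summed level was 34889.6 to 39227.5 CPM (read counts over the TMM-normalised library size) in H3K9M and 33029.5 to 40833.5 CPM in H3WT, so the labelled tissue carried its defining transcripts. Other cell types were present too, with 10 fibroblast markers summing to 12588.6 to 19374 CPM in H3K9M and 13563.3 to 19962.5 CPM in H3WT. In such mixed RNA, fewer cells of a type and less RNA per cell cannot be told apart.

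In working heart muscle each beat begins with sodium entry, and the depolarisation opens L-type calcium channels. The pore of the main cardiac L-type channel is encoded by Cacna1c. Its partner subunits are encoded by Cacnb2, a cytoplasmic beta subunit that brings the pore to the membrane and shapes its gating, and by Cacna2d1, an extracellular alpha2delta subunit that aids its surface expression. The calcium that enters triggers release from the sarcoplasmic reticulum. Slc8a1 encodes the sodium-calcium exchanger of the cardiac membrane, which removes that calcium in exchange for sodium entry.

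None of the 4 genes passed the test between H3K9M and H3WT, and in each the groups overlapped. The log2 fold changes lay between -0.08 for Cacna2d1 and 0.10 for Slc8a1, with a median of 0.09 over the 4 genes against -0.0024 over all 14758 tested genes. Over all tested genes 1.99% passed edgeR's quasi-likelihood test at an adjusted p under 0.05, and 22.6% had groups that did not overlap. The count of 0 of 4 genes is near that background in both respects and does not set them apart. The share without overlap was 11.3% in each direction, and the share called was 6.8% with DESeq2 and 1.5% with limma-voom. At an unadjusted p under 0.05, which 16.4% of all tested genes reached, none of the 4 passed either, nor did any with DESeq2 or limma-voom at an adjusted p under 0.05. The 95% intervals give the room that remains for a change, and the widest, that of Slc8a1, reaches 1.34-fold.

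**Figure D1:**
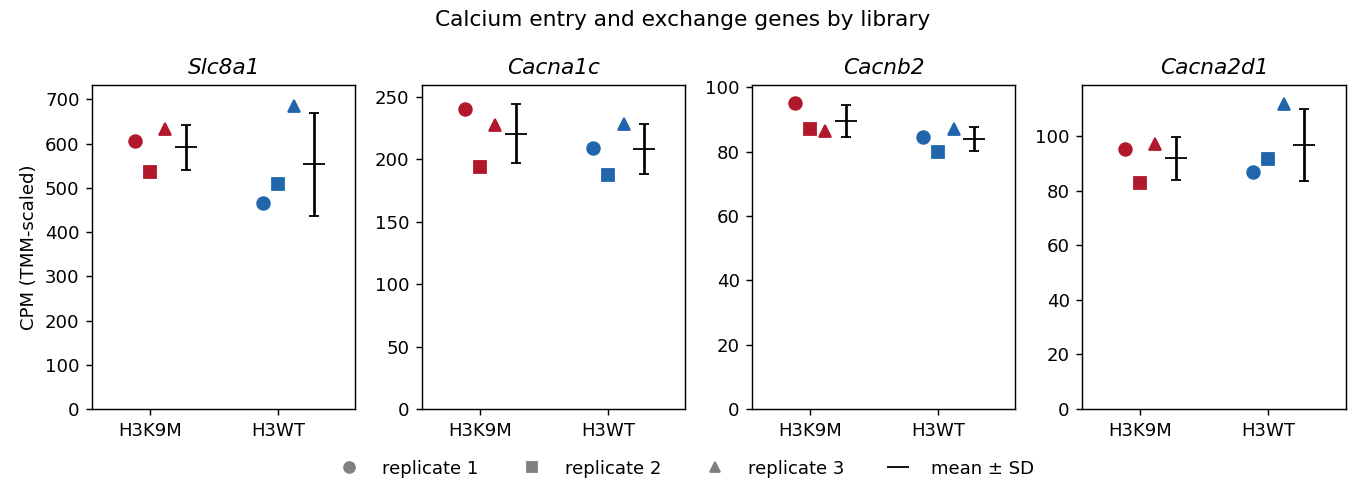
Level of each gene in CPM (vertical axis, from 0) in the 3 H3K9M libraries (red, left) and the 3 H3WT libraries (blue, right), with the mean and SD as black bars. The groups overlap in every panel, and the widest spread is that of Slc8a1 in H3WT, from 465 to 686 CPM.

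The exchanger gene Slc8a1 had the highest level of the 4. It lies on chromosome 17 (GRCm38, 81373105 to 81738377, minus strand). It was at 606, 535 and 634 CPM in H3K9M replicates 1 to 3, against 465, 509 and 686 CPM in H3WT replicates 1 to 3. The 3 H3K9M values lie inside the range of the H3WT values, whose lowest and highest libraries were replicates 1 and 3. The means were 592 ± 50.99 CPM in H3K9M and 553 ± 117 CPM in H3WT (SD, n = 3 each). The log2 fold change was 0.10 ± 0.14 (SE), with an edgeR adjusted p of 0.798 and a 95% interval of 0.851-fold to 1.34-fold. The log2 fold change turned to -0.016 without H3WT replicate 1 and was 0.28 without H3WT replicate 3 (edgeR adjusted p = 0.976 and 0.198). The unadjusted p of that last fit was 0.0263 in edgeR's test. The coefficient of variation was 8.61% in H3K9M and 21.1% in H3WT.

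The RefSeq table of start sites (GRCm38.p6) holds 1 window for Slc8a1, shown because this gene carried the most reads of the set. It gives the 250 bases before the start, 5′ to 3′, with the 1 match to the GATA motif AGATAA in capitals.
Slc8a1, chr17:81738388-81738637, minus strand: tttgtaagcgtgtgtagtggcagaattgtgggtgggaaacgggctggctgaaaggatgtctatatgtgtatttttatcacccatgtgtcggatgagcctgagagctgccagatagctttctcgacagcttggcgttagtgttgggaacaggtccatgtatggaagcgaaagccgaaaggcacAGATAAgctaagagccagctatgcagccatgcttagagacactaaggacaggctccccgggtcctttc
The motif begins 68 bases before the start, and 9.99% of all 32841 windows of this length hold it on either strand. GATA factors are regulators of heart genes, and a match of letters is not evidence of binding. No letters of a TATA box (TATAAA), a CArG box or a MEF2 box, searched on both strands, are in this window, and these occur in 12.4%, 1.47% and 2.92% of all windows.

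The pore gene Cacna1c was the next in reads. It spans chromosome 6 from 118587240 to 119196418 on the minus strand (GRCm38), and Dcp1b, on the opposite strand, lies over part of that span with no shared exon bases. Cacna1c was at 239.9, 194 and 228 CPM in H3K9M replicates 1 to 3, against 209, 188 and 228 CPM in H3WT replicates 1 to 3. Replicate 2 was the lowest library in both groups. The means were 220.5 ± 23.7 CPM in H3K9M and 208 ± 20.3 CPM in H3WT (SD, n = 3 each), and the log2 fold change was 0.08 ± 0.11 (SE), which did not pass (edgeR adjusted p = 0.759). The 95% interval ran from 0.897-fold to 1.25-fold.

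A single count of Cacna1c adds up transcripts from several starts. RefSeq gives 3 start windows for it, and the first 2 in the direction of transcription are shown because they differ in base composition while their transcripts share 1 count. Capitals mark matches to the GC box GGGCGG on either strand, which overlap one another in the second window.
Cacna1c first start, chr6:119196410-119196659, minus strand: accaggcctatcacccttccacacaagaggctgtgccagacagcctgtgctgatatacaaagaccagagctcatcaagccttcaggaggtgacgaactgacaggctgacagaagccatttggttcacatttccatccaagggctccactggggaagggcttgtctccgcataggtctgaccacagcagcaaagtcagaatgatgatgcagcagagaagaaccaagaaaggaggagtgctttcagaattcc
Cacna1c second start, chr6:119108496-119108745, minus strand: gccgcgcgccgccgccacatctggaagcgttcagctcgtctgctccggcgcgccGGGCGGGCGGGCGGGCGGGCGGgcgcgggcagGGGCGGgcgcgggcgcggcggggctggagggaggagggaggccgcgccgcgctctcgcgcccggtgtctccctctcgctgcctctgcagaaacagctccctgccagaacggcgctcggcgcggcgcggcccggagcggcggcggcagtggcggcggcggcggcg
The first window is 51.6% G and C with a ratio of observed to expected CpG of 0.12, and the second 82.8% with a ratio of 1.14. The medians over all 32841 windows are 52.4% and 0.374. GC boxes occur in 32.7% of all windows, and the counts do not say which start was used in either group.

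The beta subunit gene Cacnb2 varied least. It lies on chromosome 2 from 14603088 to 14987908 on the plus strand (GRCm38). It was at 95.2, 87.1 and 86.4 CPM in H3K9M replicates 1 to 3, against 84.6, 79.9 and 87.2 CPM in H3WT replicates 1 to 3. H3K9M replicate 1 was the highest of the 6 libraries, and H3WT replicate 3 stood above the other two H3K9M libraries. The means were 89.6 ± 4.90 CPM in H3K9M and 83.9 ± 3.68 CPM in H3WT (SD, n = 3 each). The log2 fold change was 0.09 ± 0.07 (SE), with an edgeR adjusted p of 0.570 and a 95% interval of 0.951-fold to 1.20-fold. Only 5.73% of the tested genes had a smaller standard error, so this is the tightest limit among the 4 genes.

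Cacnb2 also has more than 1 RefSeq start, and its 2 windows are shown for the same contrast in composition, with the GC box in capitals as it reads on this strand (CCGCCC).
Cacnb2 first start, chr2:14604056-14604305, plus strand: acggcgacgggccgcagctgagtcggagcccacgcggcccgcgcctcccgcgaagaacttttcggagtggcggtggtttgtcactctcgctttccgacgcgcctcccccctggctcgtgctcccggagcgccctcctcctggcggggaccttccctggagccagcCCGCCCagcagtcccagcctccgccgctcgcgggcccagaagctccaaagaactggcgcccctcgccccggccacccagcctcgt
Cacnb2 second start, chr2:14823842-14824091, plus strand: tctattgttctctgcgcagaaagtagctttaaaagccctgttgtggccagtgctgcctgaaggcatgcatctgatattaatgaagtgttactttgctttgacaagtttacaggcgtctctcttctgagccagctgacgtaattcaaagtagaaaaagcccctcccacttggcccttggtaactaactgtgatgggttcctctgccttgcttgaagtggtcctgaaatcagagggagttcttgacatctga
Their ratios of observed to expected CpG are 0.93 and 0.227. As for Cacna1c, reads from both starts enter 1 count.

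The alpha2delta subunit gene Cacna2d1 was the 1 gene of the 4 with a negative fold change. It lies on chromosome 5 from 15934691 to 16374511 on the plus strand (GRCm38). It was at 95.4, 82.7 and 97.3 CPM in H3K9M replicates 1 to 3, against 86.9, 91.6 and 112 CPM in H3WT replicates 1 to 3. H3WT replicate 3 was the highest and H3K9M replicate 2 the lowest of the 6 libraries. The means were 91.8 ± 7.91 CPM in H3K9M and 96.7 ± 13.1 CPM in H3WT (SD, n = 3 each). The log2 fold change was -0.08 ± 0.11 (SE), with an edgeR adjusted p of 0.792 and a 95% interval of 0.799-fold to 1.13-fold. Without H3WT replicate 3 it was 0.040 (edgeR adjusted p = 0.869), the opposite sign. Its 1 RefSeq window is 82.4% G and C.

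Levels can be compared between genes only per length, as CPM per kb of merged exons (GENCODE M21, basic set). On that scale Slc8a1 stood first with 31.8 ± 2.74 in H3K9M and 29.7 ± 6.27 in H3WT. Cacnb2 followed with 18.6 ± 1.02 in H3K9M and 17.4 ± 0.763 in H3WT, then Cacna1c with 14.5 ± 1.56 in H3K9M and 13.7 ± 1.33 in H3WT (SD, n = 3 each). Cacna2d1 was last with 10.9 ± 0.943 in H3K9M and 11.5 ± 1.56 in H3WT. This order held in each of the 6 libraries. Across libraries, Cacna1c and Cacna2d1 overlapped in H3WT, at 12.3 to 14.98 and 10.4 to 13.3 CPM per kb. In H3K9M they did not overlap, at 12.8 to 15.8 and 9.86 to 11.6 CPM per kb, and the other neighbours in the order did not overlap in either group. Among the 14185 tested genes with an annotated length, Slc8a1 was higher than 84.9%, Cacnb2 than 74.8%, Cacna1c than 69.1% and Cacna2d1 than 63.6%.

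Relative to the pore gene, the 3 other genes kept ratios whose groups overlapped. Per kb, Cacnb2 over Cacna1c was 1.29 ± 0.114 in H3K9M and 1.28 ± 0.0695 in H3WT (exact two-sided permutation p = 1.0, n = 3 each). Slc8a1 over Cacna1c was 2.20 ± 0.117 in H3K9M and 2.17 ± 0.321 in H3WT (exact permutation p = 0.8, n = 3 each). Cacna2d1 over Cacna1c was 0.757 ± 0.0305 in H3K9M and 0.843 ± 0.0754 in H3WT (exact permutation p = 0.3, n = 3 each). With 3 libraries against 3, this test cannot give a p under 0.1.

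**Figure D2:**
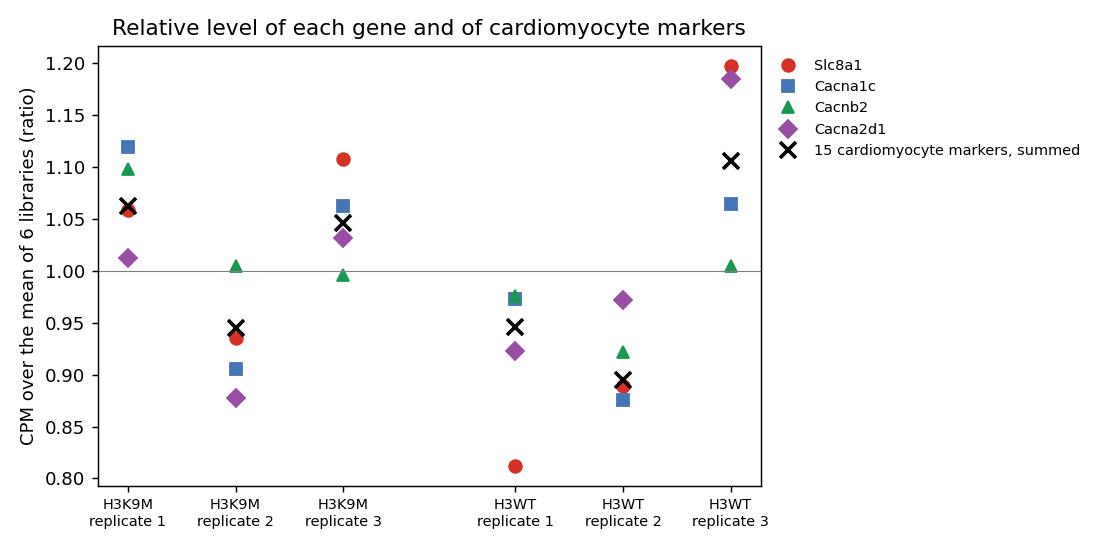
Level of each gene, and of 15 cardiomyocyte markers summed (crosses), divided by its own mean over the 6 libraries (vertical axis, ratio) for each library (horizontal axis, H3K9M left, H3WT right). H3WT replicate 3 has the highest marker sum, 40833.5 CPM, and the highest Slc8a1 and Cacna2d1.

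Levels were also set beside those of the cardiomyocyte markers in each library. The 15 markers summed to 39227.5, 34889.6 and 38632.9 CPM in H3K9M replicates 1 to 3, against 34944.1, 33029.5 and 40833.5 CPM in H3WT replicates 1 to 3. Of the 15, 1 was called higher in edgeR's test, as were 0.935% of all tested genes, and 10 had positive and 5 negative fold changes. DESeq2 called 2 higher, against 6.8% of all tested genes called in either direction. The edgeR call was kept by limma-voom and without H3K9M replicate 3, H3WT replicate 1 or H3WT replicate 3. It was lost without any 1 of the other libraries. H3K9M replicate 2 and H3WT replicates 1 and 2 were the 3 lowest libraries for the marker sum, and the same 3 were the lowest for Slc8a1 and for Cacna1c. The part of the markers in these levels was not tested. Per 1000 CPM of markers, Cacna1c was at 5.86 ± 0.278 in H3K9M and 5.74 ± 0.200 in H3WT, and Slc8a1 at 15.7 ± 0.591 in H3K9M and 15.2 ± 1.75 in H3WT (SD, n = 3 each). Cacnb2 was at 2.39 ± 0.134 in H3K9M and 2.33 ± 0.165 in H3WT, and Cacna2d1 at 2.44 ± 0.0737 in H3K9M and 2.66 ± 0.154 in H3WT. Their exact permutation p-values were 0.7, 0.8, 0.5 and 0.2 in that order of genes (n = 3 each).

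The wider gene family of voltage-gated calcium channel subunits held 26 listed genes, of which 16 were tested and none passed in either direction. At an unadjusted p under 0.05 there were 2, Cacnb3 and Cacnb4, which is near the background of 16.4% of all tested genes and sets the family apart in no way. DESeq2 called 1. The median log2 fold change was -0.07, with 6 positive and 10 negative, against a median of -0.0024 over all tested genes. Both genes with an unadjusted p under 0.05 encode beta subunits, the family of Cacnb2. Both were lower in every H3K9M library than in any H3WT library, as were 11.3% of all tested genes. Cacnb3 was at 72.1, 75.9 and 64.9 CPM in H3K9M replicates 1 to 3, against 99.2, 92.9 and 82.7 CPM in H3WT replicates 1 to 3. Its log2 fold change was -0.37 ± 0.09 (SE), with an edgeR adjusted p of 0.0914, a DESeq2 adjusted p of 0.0193, and 0.00356 in the authors' deposited table. Cacnb4 was at a low level, with no library above 1.12 CPM. It averaged 0.396 ± 0.0578 CPM in H3K9M and 0.898 ± 0.310 CPM in H3WT (log2 fold change -1.17 ± 0.49, edgeR adjusted p = 0.278, n = 3 each).

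The share of Cacnb2 among the 4 beta subunit genes, per kb, differed with no overlap between groups. It was 41.4%, 38.2% and 42.2% in H3K9M replicates 1 to 3, against 32.2%, 32.8% and 37.2% in H3WT replicates 1 to 3. The means were 40.6 ± 2.09% in H3K9M and 34.1 ± 2.69% in H3WT, a difference of 6.50 percentage points (exact two-sided permutation p = 0.1, the smallest this design allows, n = 3 each). Cacnb3 held 52.3 ± 1.72% in H3K9M and 60.4 ± 2.59% in H3WT, and Cacnb1, a beta subunit known mainly from skeletal muscle, held 7.03 ± 0.756% in H3K9M and 5.33 ± 0.654% in H3WT. Leaving out 1 library at a time gave differences of 5.58 to 8.04 percentage points. The level of Cacnb2 itself overlapped between groups (log2 fold change 0.09), while Cacnb3, in the same sum, was at -0.37. Among single genes, 22.6% of all tested had groups without overlap in CPM, and no such background was computed for shares.

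Beside this difference in shares, 9 endothelial markers summed to 142 to 213 CPM in H3K9M and 231 to 314 CPM in H3WT. All 9 had negative fold changes, 6 of them at an unadjusted p under 0.05 in edgeR's test (16.4% over all tested genes). None passed edgeR's adjusted threshold (1.99% of all tested genes), while DESeq2 called 2 lower, Egfl7 and Tek (6.8% of all tested genes called in either direction). Without H3K9M replicate 2, edgeR called Egfl7 lower. Smooth muscle markers summed to 4823.8 to 5250.13 CPM in H3K9M and 5197.48 to 7066.84 CPM in H3WT, with negative fold changes in 6 of 6 and Smtn, a smooth muscle cytoskeletal gene, called lower. The 6 markers of nodal and conduction cells, which include Cacna1g, summed to 220.2 to 259 CPM in H3K9M and 261 to 345 CPM in H3WT, with negative fold changes in all 6 and Hcn4, a pacemaker channel gene, called lower. The calls of Smtn and Hcn4 were each lost in 5 of the 6 fits that left out 1 library, and held only without H3WT replicate 1 for Smtn and only without H3K9M replicate 3 for Hcn4. Pericyte markers were mostly higher, and fibroblast markers went both ways. The 5 pericyte markers summed to 920.4 to 1058 CPM in H3K9M and 789 to 911 CPM in H3WT with no overlap, positive in 4 of 5 and none past edgeR's adjusted threshold, while DESeq2 called 1, Abcc9 (6.8% of all tested genes). Of the 10 fibroblast markers, 1, Ddr2, was called higher (0.935% of all tested genes) and 6 had negative fold changes. The call of Ddr2 held in 2 of the 6 fits that left out 1 library, those without H3WT replicate 1 and without H3WT replicate 3. Without H3WT replicate 3, edgeR called 2 fibroblast markers higher and 2 lower. The part of these cell types in the lower Cacnb3 was not tested.

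**Figure D3:**
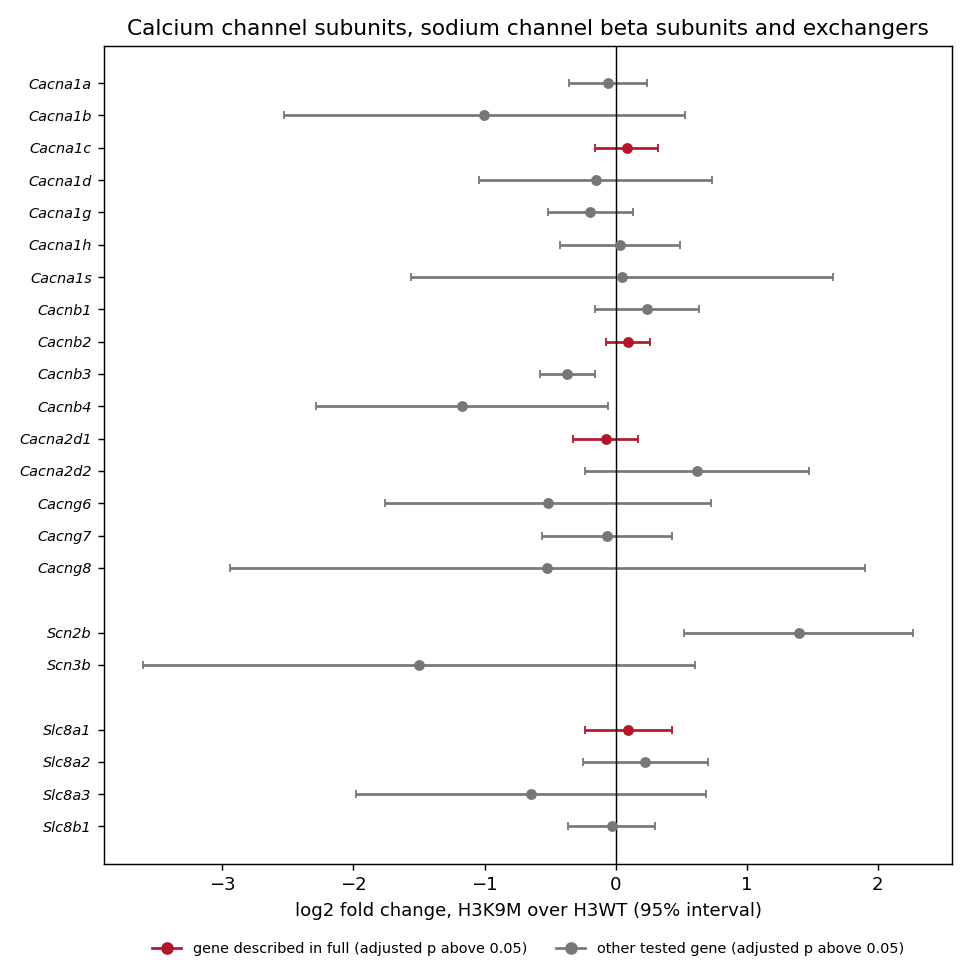
Log2 fold change of H3K9M over H3WT (horizontal axis) with its 95% interval for the 16 tested calcium channel subunit genes, 2 sodium channel beta subunit genes and 4 exchanger genes. The 4 genes described in full (red) lie between -0.08 and 0.10, and Cacnb3 lies at -0.37. Among the 4, Cacnb2 has the narrowest interval and Slc8a1 the widest.

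Among pore genes the largest share per kb was not that of Cacna1c. Cacna1g, the pore of a T-type calcium channel of the embryonic heart and the pacemaker tissue, held 50.5 ± 0.690% in H3K9M and 54.3 ± 4.81% in H3WT. Cacna1c held 40.0%, 35.9% and 37.9% in H3K9M replicates 1 to 3, against 30.0%, 35.9% and 36.8% in H3WT replicates 1 to 3, a difference of 3.69 percentage points between means (exact permutation p = 0.3, n = 3 each). Without H3WT replicate 1 that difference was 1.57 percentage points, and over all 6 fits that left out 1 library it was 1.57 to 4.98. H3WT replicate 1, which had the highest Cacna1g at 232 CPM, gave the lowest share of Cacna1c. Cacna1g averaged 164 ± 7.60 CPM in H3K9M and 187 ± 41.3 CPM in H3WT, and did not pass (log2 fold change -0.19 ± 0.14 SE, edgeR adjusted p = 0.550). Without scaling to length the order of the means was reversed, with Cacna1c at 220.5 CPM in H3K9M and 208 CPM in H3WT. Only in H3WT replicate 1 was Cacna1c, at 209 CPM, below Cacna1g. Cacna1a, a pore gene known from neurons, held 8.28 ± 1.58% in H3K9M and 8.20 ± 0.754% in H3WT, and Cacna1d, the other L-type pore of the heart, 0.496 ± 0.198% in H3K9M and 0.537 ± 0.104% in H3WT.

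The other 2 families were dominated by 1 gene each. Cacna2d1 held 97.0 ± 1.18% of alpha2delta subunit reads per kb in H3K9M and 98.1 ± 0.353% in H3WT, over the 2 such genes analysed, with Cacna2d2 as the rest (exact permutation p = 0.3, n = 3 each). Slc8a1 held 83.0 ± 2.36% among 4 exchanger genes in H3K9M and 81.7 ± 5.03% in H3WT (exact permutation p = 0.9, n = 3 each). The sign of this difference, 1.31 percentage points, turned to -1.07 without H3WT replicate 1 and to -0.0013 without H3K9M replicate 3. The mitochondrial exchanger gene Slc8b1 held 13.8 ± 2.04% in H3K9M and 15.3 ± 4.39% in H3WT.

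**Figure D4:**
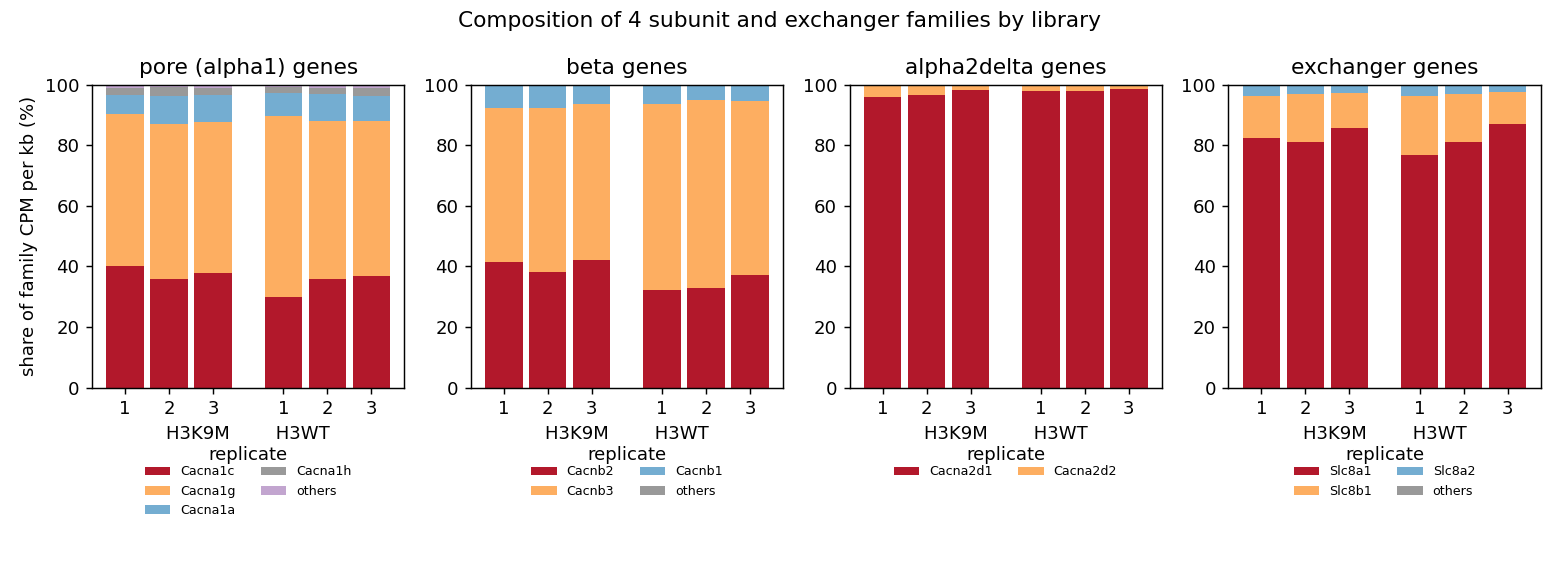
Share of each gene in its family, in percent of CPM per kb (vertical axis), for the 3 H3K9M libraries (left in each panel) and the 3 H3WT libraries (right). Dark red is Cacna1c, Cacnb2, Cacna2d1 or Slc8a1, and the Cacnb2 share is 38.2% to 42.2% in H3K9M against 32.2% to 37.2% in H3WT.

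Sodium channel subunits were a small list. Of 14 listed genes 6 were tested, and 1 passed, against 1.99% of all tested genes. At an unadjusted p under 0.05 there were 3 (16.4% of all tested genes). The groups did not overlap for 2 that were higher and 2 that were lower in H3K9M, against 11.3% of all tested genes in each direction. Scn10a, a pore gene first known from sensory neurons and also found in heart, rose in H3K9M. It was at 14.0, 28.7 and 27.5 CPM in H3K9M replicates 1 to 3, against 9.62, 7.60 and 10.8 CPM in H3WT replicates 1 to 3, with no overlap. Its log2 fold change was 1.33 ± 0.26 (SE, edgeR adjusted p = 0.0445), and limma-voom did not call it (adjusted p = 0.0910). The call held without H3K9M replicate 1 (edgeR adjusted p = 0.0100) and was lost without any 1 of the other 5 libraries, with edgeR adjusted p-values of 0.0507 to 0.187.

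Scn2b, a beta subunit gene of the sodium channel like Scn4b, is named here after its values were seen. It was at 2.78, 4.26 and 3.02 CPM in H3K9M replicates 1 to 3, against 1.76, 1.39 and 0.676 CPM in H3WT replicates 1 to 3, and the groups did not overlap. Its log2 fold change was 1.40 ± 0.38 (SE), which did not pass in edgeR's test (adjusted p = 0.112). It passed with DESeq2 (adjusted p = 0.00869) and in the authors' deposited table, at 0.000376.

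Of 31 listed exchangers and pumps of the cell membrane and mitochondria, 23 were tested. In edgeR's test 0 rose and 1 fell, against 1.99% of all tested genes called in either direction. At an unadjusted p under 0.05 there were 2, a share below the 16.4% of all tested genes. Atp2b4, a calcium pump of the cell membrane, was at 20.4, 24.7 and 25.9 CPM in H3K9M replicates 1 to 3, against 40.9, 37.6 and 32.8 CPM in H3WT replicates 1 to 3. Its log2 fold change was -0.65 ± 0.12 (SE, edgeR adjusted p = 0.0419). The call was kept by DESeq2 and limma-voom (adjusted p = 0.000220 and 0.0472) and without H3WT replicate 3 (edgeR adjusted p = 0.0305). It was lost without any 1 of the other 5 libraries, with edgeR adjusted p-values of 0.0859 to 0.160.

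Regulators and neighbours of these channels gave no calls in edgeR's test. Of 25 calcium channel regulators 25 were tested and 0 passed, with 2 at an unadjusted p under 0.05, a share below the 16.4% of all tested genes. Ahnak, a large scaffold protein that binds the beta subunit, was at 2361 ± 281 CPM in H3K9M and 1911 ± 217 CPM in H3WT (n = 3 each, edgeR adjusted p = 0.258). Prkar1a, a regulatory subunit of protein kinase A, was at 688 ± 49.5 CPM in H3K9M and 817 ± 53.9 CPM in H3WT (n = 3 each, edgeR adjusted p = 0.220). DESeq2 and limma-voom called 0 of these 25.

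Of 15 sodium channel partners 14 were tested and 0 passed, with 2 at an unadjusted p under 0.05, near the 16.4% of all tested genes. They were Dlg1, a membrane scaffold, and Pkp2, a desmosomal protein of the intercalated disc. Dlg1 was at 154, 149 and 178 CPM in H3K9M replicates 1 to 3, against 127, 121 and 127 CPM in H3WT replicates 1 to 3 (edgeR adjusted p = 0.0766). Pkp2 was at 308, 296 and 276 CPM in H3K9M replicates 1 to 3, against 189, 209.8 and 247 CPM in H3WT replicates 1 to 3 (edgeR adjusted p = 0.0788). Neither overlapped between groups. In all, 3 of the 14 were higher in H3K9M without overlap, against 11.3% of all tested genes. DESeq2 called both Dlg1 and Pkp2 (adjusted p = 0.00693 and 0.00345), against 6.8% of all tested genes, and limma-voom called neither. Without H3WT replicate 3, edgeR called Pkp2 (adjusted p = 0.0257).

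Of 14 scaffolds and release genes of the dyad, where the L-type channel faces the sarcoplasmic reticulum, 13 were tested and 0 passed, with 1 at an unadjusted p under 0.05 (16.4% over all tested genes), and DESeq2 and limma-voom called 0. Jph2, which tethers both membranes, was at 536 ± 10.8 CPM in H3K9M and 520.4 ± 13.4 CPM in H3WT (n = 3 each, edgeR adjusted p = 0.827). Ryr2, the calcium release channel, was at 531 ± 83.8 CPM in H3K9M and 462 ± 58.9 CPM in H3WT (n = 3 each, edgeR adjusted p = 0.513).

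Genes with the most similar profile over the 6 libraries were found by the root mean square difference of centred log2 CPM, among 10552 genes of at least 5 CPM. Cacna1c was nearest to Wnk1, Fyco1 and Fem1a, at differences of 0.026 to 0.033 on the log2 scale, against its own spread of 0.13. Cacnb2 was nearest to Vps8, Abcb10 and Kif3b (0.015 to 0.022, own spread 0.075), and Cacna2d1 to Chrnb1, Chml and Ipp (0.027 to 0.038, own spread 0.14). Slc8a1, whose spread was the widest at 0.19, was nearest to Snap91, Larp1 and Nip7 (0.056 to 0.061). None of the 4 genes was among the 3 nearest of another, and with 6 libraries such nearness is a description only.

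The 4 genes also did not pass in the authors' deposited table. Its log2 fold changes were 0.12 for Slc8a1, 0.07 for Cacna1c, 0.12 for Cacnb2 and -0.12 for Cacna2d1, with the authors' adjusted p-values between 0.735 and 0.891. The sign of each of the 4 in the authors' deposited table is the one found here.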

How the data were processed

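Polyadenylated RNA of 6 libraries was sequenced after preparation with a Tecan kit, per the labels' protocols, and HISAT2, featureCounts, DESeq2 and the mm10 build are named in the submitters' processing notes. No source used here gives versions, the annotation or the strand setting. The authors deposited raw counts per gene, and a table of their DESeq2 comparison with a mean normalised count (a signal), log2 fold changes and p-values. The Wald score the authors deposited there was left aside. The deposited counts were 3.97 times (median) the authors' mean normalised count, so both tables may not rest on the same reads.

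Low genes were removed by filterByExpr (minimum count 10, minimum total 15) and compared with edgeR 4.0.16 in R 4.3.3 (TMM, quasi-likelihood F test, group as the only term, Benjamini-Hochberg adjustment over 14758 genes). The standard error is the log2 fold change over the square root of F, and intervals cover 95%. Single ratios and shares were compared with exact two-sided permutation tests (scipy 1.17.1). No share of Scn4b was computed. The genes and lists were chosen with earlier results of these data known. The named genes are the set itself and, per list, called genes, the 2 smallest p and the 2 highest CPM, with 3 nearest profiles per gene. Some genes this rule picks are not reported here. Sequences and gene positions are from RefSeq (GRCm38.p6) and GENCODE M21 (GRCm38, also called mm10), and windows matched all 4 genes analysed.

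Alternatives were DESeq2 1.42.0, limma-voom (limma 3.58.1), other scalings and filters, a replicate block and leaving out each library. Replicate pairs of a group differed by a chi-square per gene of 27.0 to 121, so no library is a copy. Steps were tested on simulated counts.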

Additional observations from a re-analysis of the deposited data

How the results depend on the processing

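Cacna1c and Cacnb2 kept their sign and stayed short of the threshold in all 15 alternatives each, with edgeR, DESeq2 or limma-voom adjusted p-values of 0.509 to 0.979 and 0.484 to 0.969. Slc8a1 and Cacna2d1 did so in 14 of 15. Without H3WT replicate 1 Slc8a1 was at -0.016, and without H3WT replicate 3 Cacna2d1 was at 0.040 on the log2 scale, and the cause was not tested. Leaving out 1 library at a time gave 0.015 to 0.16 for Cacna1c, 0.047 to 0.12 for Cacnb2, -0.15 to 0.040 for Cacna2d1 and -0.016 to 0.28 for Slc8a1. Scaling to the cardiomyocyte markers, chosen after seeing the data, gave 0.028, 0.038, -0.13 and 0.053 in that order of genes. Genes called over the whole table numbered 293, 1010 with DESeq2 and 60 to 372 without 1 library at a time. The replicate block gave 58 calls and changed no call of the 4 genes. It removed the calls of Scn10a (edgeR adjusted p = 0.138), Atp2b4 (0.154), Hcn4, Smtn, Ddr2 and the 1 called cardiomyocyte marker. Deviations of same-numbered libraries correlated at -0.157, 0.0346 and -0.0694, and not every library correlated best with its own number. Because deviations from a mean of 3 libraries constrain each other, these correlations cannot decide whether the libraries were paired. The titles of replicates 1 and 3 share a tag between the groups, and those of replicate 2 do not. What the tag stands for is not given in the titles. In the lists, DESeq2 called 1 calcium channel subunit gene against 0 in edgeR, 3 sodium channel subunit genes against 1 (limma-voom 0), and 2 sodium channel partners against 0. Without 1 library at a time, share differences between H3K9M and H3WT were 1.57 to 4.98 percentage points for Cacna1c, 5.58 to 8.04 for Cacnb2, -1.75 to -0.595 for Cacna2d1 and -1.07 to 3.94 for Slc8a1, whose sign reversed (-1.07 without H3WT replicate 1, -0.0013 without H3K9M replicate 3). Raw counts in place of CPM per kb gave 4.07, 6.69, -0.777 and 0.296 in that order of genes. A share of Scn4b could not be computed. With 3 libraries a group, changes inside the 95% intervals remain possible, and these intervals are not limits of detection.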
